A study of Mus musculus with 4 samples.

Results

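The transcripts of 8 chemokine receptors were followed through the leukocytes of transplanted mouse lungs, namely Cxcr1, Cxcr2, Cxcr3, Cxcr4, Ccr1, Ccr2, Cx3cr1 and Ccrl2. They were taken by gene symbol, and 8 of the 32285 genes in the count table were therefore described. Chemokine receptors are serpentine membrane proteins that couple to inhibitory G proteins and steer leukocytes along gradients of small secreted proteins. In the lung, Cxcr2 and Cxcr1 are known for guiding neutrophils, Ccr2 for the supply of classical monocytes from bone marrow, Cx3cr1 for patrolling monocytes, Cxcr3 for effector T cells and Cxcr4 for retention in marrow and in the lung's vessels. Ccrl2 is an atypical member that binds the attractant chemerin and does not couple to G proteins.

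The cells were CD45+ leukocytes, CD45 being a surface protein of all leukocytes, from left lungs of B6 mice transplanted into B6 recipients and collected 2 h after reperfusion. All 4 groups shared storage of the graft for 60 min at 4 °C and 45 min at 28 °C. Recipients had received intravenous Resolvin D1 (RvD1, a lipid mediator of the resolution of inflammation, 200 ng per mouse in 200 µL of 1% ethanol) just before surgery, or vehicle, and leukocytes of donor and of recipient origin were sequenced apart. This gave 4 groups, the donor cells and the recipient cells of vehicle and of RvD1 transplants, of 1 library each, with 2 lungs pooled per library. Age, sex and genotype beyond the strain, how the cells of the 2 origins were told apart, and whether donor and recipient libraries of a treatment shared lungs are not given in the sources used here.

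With 1 library per group no difference below has a replicate check, and no p-value is given. Intervals are 95% and cover counting error of unique molecular identifiers (UMIs, tags that count captured RNA molecules) only. In the file headers the RvD1 libraries carry Cell Ranger 7.0.1 and the vehicle libraries 6.1.1, so software version and treatment cannot be told apart.

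The libraries held 5009 to 7368 cells after filtering, with medians of 5392 to 7917.5 UMIs per cell, and any pair of libraries shared 4 to 15 barcodes. The cells were clustered without any chemokine receptor gene, and clusters were named from marker genes, so that "neutrophils" below means neutrophil-like cells and likewise for the other classes. In all, 6 classes had at least 100 cells in every library: neutrophils (1412 to 3340 cells), classical monocytes (176 to 782), nonclassical monocytes (189 to 506), NK cells (355 to 783), T cells (791 to 1808) and B cells (270 to 947). Csf3r, the receptor for the granulocyte growth factor, was detected in 96.2 to 98.9% of neutrophils, but Ly6g, a classical surface marker of mouse neutrophils, in only 6.73 to 16.6%. Ly6c2 was detected in 71.7 to 89.8% of classical monocytes, Ace in 93.7 to 95.4% of nonclassical monocytes, Ncr1 in 58.2 to 69.8% of NK cells, Cd3e in 87.4 to 92.6% of T cells and Cd79a in 95.6 to 97.7% of B cells.

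Cxcr1, Cxcr2 and Cxcr4 lie on chromosome 1, Ccr1, Ccr2, Cx3cr1 and Ccrl2 on chromosome 9 and Cxcr3 on the X chromosome (GRCm38/mm10). Cxcr1 (chr1:74191785-74194631, minus strand) and Cxcr2 (chr1:74153989-74161246, plus strand) point towards each other at a distance of 30.539 kb. Ccr2 lies at chr9:124101950-124113557 on the plus strand. Cx3cr1 (chr9:119901616-120069879, minus strand) is the only member that overlaps other genes: its annotated introns span 163.759 kb and hold Gorasp1, Csrnp1 and Xirp1 on the same strand. In the last 500 bases of their transcripts, where 3' counting reads fall, Cxcr1, Cxcr3, Cxcr4, Ccr1 and Ccr2 shared 0% of their 31-base words with other genes. Ccrl2 shared 0.467%, Cx3cr1 5.31% and Cxcr2 9.04%.

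Cxcr2, Ccr1, Cxcr1, Cxcr4 and Ccrl2 had their highest level in neutrophils, as the values further on show. Of these, the 250 bases before the start of Cxcr2, Ccr1 and Cxcr1 are printed. Sequences and starts are from RefSeq (GRCm38.p6), in which all 8 members were found, and are given 5′ to 3′ on the gene's strand. Cxcr1 is chr1:74194632-74194881 (minus), Cxcr2 chr1:74153744-74153993 (plus) and Ccr1 chr9:123968693-123968942 (minus). Capitals mark GAGGAA, the core bound by ETS factors such as PU.1, and TGTGGT, the core bound by RUNX factors, on either strand.
Cxcr1: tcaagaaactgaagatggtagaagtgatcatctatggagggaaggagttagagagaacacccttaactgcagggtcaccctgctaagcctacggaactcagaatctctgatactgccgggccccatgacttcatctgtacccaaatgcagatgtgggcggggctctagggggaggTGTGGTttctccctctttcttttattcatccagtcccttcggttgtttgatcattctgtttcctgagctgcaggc
Cxcr2: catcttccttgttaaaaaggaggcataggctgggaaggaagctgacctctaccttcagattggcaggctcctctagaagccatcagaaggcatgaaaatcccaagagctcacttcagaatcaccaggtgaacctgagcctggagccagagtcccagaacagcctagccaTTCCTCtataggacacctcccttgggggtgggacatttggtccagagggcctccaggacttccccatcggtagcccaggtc
Ccr1: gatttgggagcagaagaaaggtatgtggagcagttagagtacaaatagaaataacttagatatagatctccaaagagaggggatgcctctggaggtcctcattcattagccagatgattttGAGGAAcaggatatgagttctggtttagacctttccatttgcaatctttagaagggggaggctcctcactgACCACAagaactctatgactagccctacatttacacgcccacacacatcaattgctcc
Cxcr2 held 1 GAGGAA, 81 bases before the start on the opposite strand. Cxcr1 held 1 TGTGGT, 75 bases before the start. Ccr1 held both, GAGGAA at 129 bases and TGTGGT at 58 bases before the start. Of 27025 promoters of the same length, 23.1% held GAGGAA and 14.2% held TGTGGT on either strand, so neither match sets these genes apart. Among the other 5 receptors, Ccrl2 held neither word, Cxcr3 held both and Cx3cr1 held TGTGGT. Cxcr4 and Ccr2 held none of the 7 motifs searched. Besides the ETS and RUNX words these were TTGCNNAA, the C/EBP word, in 9.55% of promoters. The NF-kB word ACTTTCC was in 4.15%. The interferon-response element, a pair of GAAA words with 2 bases between them, was in 3.04%. The T-box word AGGTGTGA was in 1.14%. The hypoxia-response core ACGTG was in 16.6%. ACTTTCC was found before 1 of the 3 annotated starts of Ccrl2 and ACGTG before all 3.

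Receptor levels differed between the leukocyte classes, and several receptors were highest in the same class. Of 48 pairs of a receptor and a class, 15 reached at least 100 CPM (counts scaled to a fixed total of UMIs per class) in all 4 libraries and 24 stayed under 20 CPM in all 4. Where 4 values follow each other, the first pair is from donor cells and the second pair from recipient cells, with vehicle before RvD1 in each pair. Because UMIs were counted at the 3' end, levels are compared between cells for 1 gene and not between genes.

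**Figure D1:**
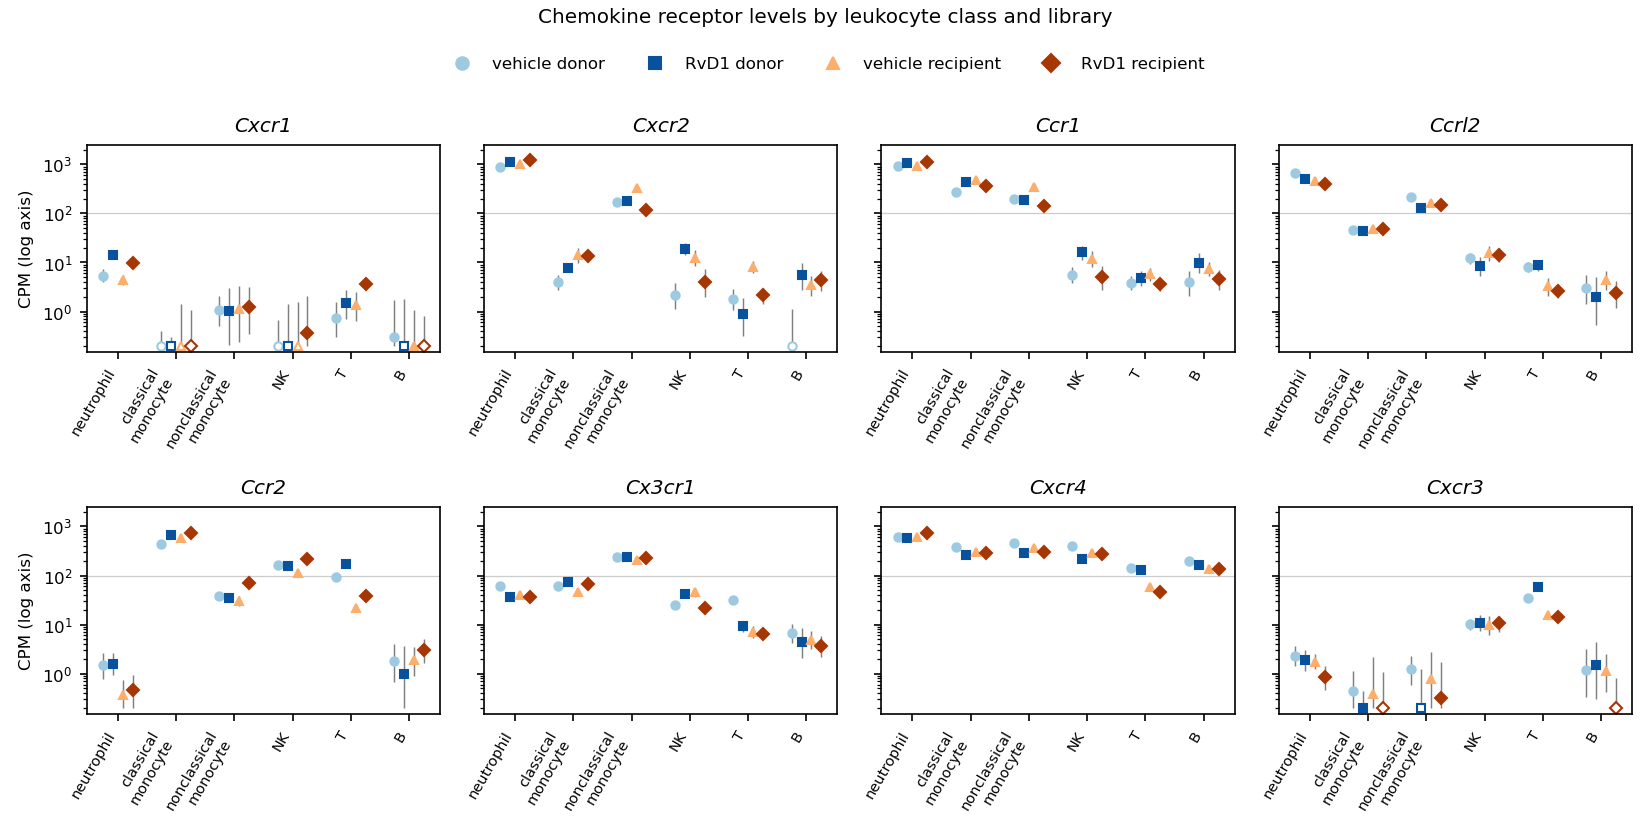
Levels of the 8 receptors in 6 leukocyte classes, in CPM on a log axis, with 1 point per library, bars for the 95% counting interval, and open symbols for 0 UMIs. The grey line marks 100 CPM: Cxcr2 and Ccrl2 stand highest in neutrophils, Ccr2 in classical monocytes, Cx3cr1 in nonclassical monocytes and Cxcr3 in T cells, while Cxcr4 lies above the line in all 4 libraries of every class except T cells.

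Cxcr2, the receptor for the neutrophil attractants Cxcl1, Cxcl2, Cxcl3 and Cxcl5, was found at 886, 1126, 1026 and 1243 CPM in neutrophils and was detected in 88.1 to 94.6% of them. Neutrophils held 81.5, 93.1, 94.8 and 97.0% of all its UMIs. Nonclassical monocytes came next at 118 to 326 CPM, then the small basophil-like class at 68.0 to 111 CPM (10 to 84 cells). In classical monocytes, NK cells, T cells and B cells it ranged from 0 to 19.1 CPM, and the order of these 4 classes was not the same in all libraries. After each cell was thinned to 1000 UMIs, Cxcr2 was detected in 51.2, 57.4, 57.3 and 63.4% of neutrophils.

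Cxcr1, the close relative of Cxcr2, had a low level everywhere. Its 44, 144, 85 and 150 UMIs in neutrophils gave 5.42, 14.4, 4.42 and 9.86 CPM, and it was detected in 2.41, 5.38, 1.92 and 3.10% of these cells. Both RvD1 libraries lay above both vehicle libraries. In B cells, which should lack the gene, at most 0.221% had a Cxcr1 UMI, at median depths of 4604 to 6574 UMIs per cell against 4878 to 5344 in neutrophils. Classical monocytes had no Cxcr1 UMI in any library. T cells of CD4 cluster 22 had 5, 8, 6 and 40 Cxcr1 UMIs, or 3.402, 13.1, 2.34 and 7.10 CPM, and those of CD8 cluster 20 had 2, 2, 3 and 10 UMIs. CD8 cluster 6, the regulatory and gamma-delta T cell clusters and NK cells had at most 1 UMI each per library.

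Ccr1, a receptor for Ccl3, Ccl5 and related inflammatory ligands, was found at 930.0, 1075, 916 and 1121 CPM in neutrophils and in 93.6 to 96.2% of them. Classical monocytes followed with 275, 428, 480.4 and 367 CPM. The ranges of nonclassical monocytes (139 to 344 CPM), basophil-like cells (224 to 454) and alveolar macrophages (192 to 267, from 4 to 224 cells) overlapped with theirs and with one another. In lymphocytes Ccr1 stayed at or under 16.02 CPM.

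Ccrl2 was found at 671, 494, 463 and 401 CPM in neutrophils, in 66.3, 53.7, 56.1 and 44.7% of the cells. The vehicle donor library stood highest and the RvD1 recipient library lowest. Nonclassical monocytes had 216, 129.8, 165 and 150.5 CPM and basophil-like cells 147 to 250.5 CPM, ranges that overlapped. Classical monocytes had 43.8 to 48.3 CPM, the narrowest range over the 4 libraries of any receptor they carried above 20 CPM.

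Ccr2, the receptor for Ccl2, had its highest class level in classical monocytes, at 442, 671, 572 and 742 CPM and in 85.1 to 93.7% of cells. NK cells followed with 161, 159, 112 and 214 CPM, and T cells with 93.6, 174, 21.9 and 37.8 CPM. NK and T cell ranges overlapped. Nonclassical monocytes had 30.3 to 69.9 CPM and neutrophils 0.363 to 1.60 CPM. Group 2 innate lymphoid cells, with enough cells only in the donor libraries to be given, had 184 and 189.6 CPM (73 and 86 cells).

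Cx3cr1, the receptor for fractalkine, was highest in nonclassical monocytes with 241, 243, 209.7 and 230.1 CPM, all 4 libraries within a narrow range. Classical monocytes had 46.7 to 72.5 CPM, neutrophils 36.5 to 60.2 CPM, and NK cells 21.6 to 45.2 CPM. In the monocytes Ccr2 without Cx3cr1 was detected in 54.9 to 61.4% of classical monocytes, and Cx3cr1 without Ccr2 in 56.3 to 68.8% of nonclassical monocytes. Both were detected in 30.2, 38.0, 31.2 and 28.3% of classical monocytes, where the product of their separate shares was 30.1, 38.4, 31.05 and 29.9%.

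Cxcr4, the receptor for Cxcl12, was the most widely found, at or above 100 CPM in 5 of the 6 classes in every library. Neutrophils had 616, 585, 607 and 721 CPM, above the other 5 classes in each library. Basophil-like cells had 482 to 606 CPM. Nonclassical monocytes (281 to 466 CPM), classical monocytes (266 to 377) and NK cells (222 to 394) had overlapping ranges. B cells had 195, 166, 136 and 136 CPM and T cells 144, 131, 57.6 and 46.6 CPM.

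Cxcr3, the receptor for the interferon-induced ligands Cxcl9 and Cxcl10, was highest in T cells, at 34.3, 57.0, 15.7 and 14.1 CPM. NK cells had 9.81 to 10.9 CPM, and neutrophils and monocytes under 3 CPM in every library. Cxcr3 and Cxcr4 were detected together in 11.6, 13.7, 3.92 and 2.16% of T cells, where the product of the separate shares was 9.89, 12.7, 2.54 and 1.44%.

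**Figure D2:**
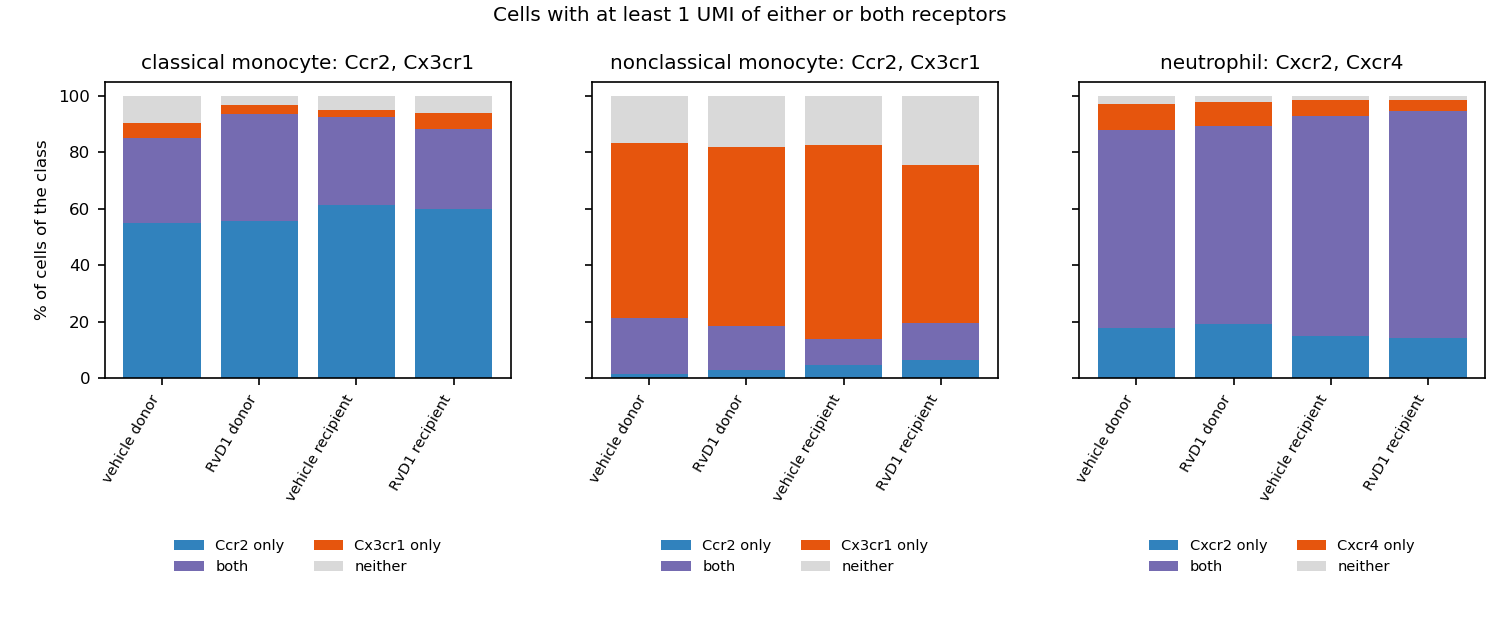
Percent of cells of a class with a UMI of Ccr2, Cx3cr1 or both (classical and nonclassical monocytes) and of Cxcr2, Cxcr4 or both (neutrophils), stacked for each library. Most classical monocytes show Ccr2 alone, most nonclassical monocytes Cx3cr1 alone, and 70.5 to 80.5% of neutrophils show both Cxcr2 and Cxcr4.

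Neutrophils are known to lose Cxcr2 and gain Cxcr4 as they age in the circulation. Here most neutrophils showed both, at about the rate that the separate shares give. Cxcr2 and Cxcr4 were both detected in 70.5, 70.5, 77.9 and 80.5% of the cells, and the products of the shares were 70.0, 70.5, 77.7 and 80.0%. Cxcr2 alone was counted in 88.1 to 94.6% of neutrophils and Cxcr4 in 78.8 to 84.5%, whether or not the other was present. Because these shares are high and detection counts any UMI, the joint share cannot show whether Cxcr2 levels fall where Cxcr4 levels rise. That relation was not tested, and levels of both over the neutrophil clusters are given further on. Cxcr2 and Ccr1 were both detected in 83.7 to 91.4%.

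RNA released by broken cells can place neutrophil transcripts in other cells. S100a8 and S100a9, abundant neutrophil transcripts, served as a tracer: neutrophils had 13.8, 11.4, 9.68 and 11.7 Cxcr2 UMIs per 1000 UMIs of this pair. B cells had 0, 11.7, 5.97 and 17.8, T cells 19.7, 8.65, 13.6 and 6.45, and NK cells 11.98, 18.0, 12.05 and 6.91. These lymphocyte ratios rest on 0 to 60 Cxcr2 UMIs per class and library and lie on both sides of the neutrophil values. The part of free RNA in the lymphocyte counts was not tested, and their Cxcr2 is not read as expression. Ccr1 in classical monocytes had 418 to 2681 UMIs per 1000 tracer UMIs.

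The Cxcr2 UMIs of nonclassical monocytes lay mostly in 1 of their 2 clusters. In cluster 10 it had 8.49, 5.84, 1.27 and 5.95 CPM, and in cluster 4 289.7, 405, 466 and 439 CPM. Ccr1 was split the same way, 2.55 to 15.8 CPM in cluster 10 and 329.9, 412, 491 and 521 CPM in cluster 4, whereas Cx3cr1 was at 251 to 282 CPM in cluster 10 and 169.7 to 212 CPM in cluster 4. Cluster 4 also carried neutrophil transcripts and more UMIs: S100a8 and S100a9 summed to 15116 to 39493 CPM against 195 to 606 CPM in cluster 10, and its cells had medians of 13367 to 18948 UMIs against 7803.5 to 10309 in cluster 10. Its Cxcr2 UMIs per 1000 tracer UMIs were 19.2, 14.5, 11.8 and 14.6, each above the neutrophils of the same library. The part of free RNA and of cells captured in pairs in these values was not tested.

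Neutrophils formed 7 clusters, and the receptors were spread over them unevenly. Cluster 13, led by the granule genes Ngp, Retnlg and Mmp8, had the lowest Ccrl2 level, 57.8, 53.8, 78.7 and 43.4 CPM. It was also the cluster with the lowest Cxcr4 in the vehicle donor library, 308 CPM. Cluster 12, led by Ntng2, Ccrl2 and Mrgpra2b, had the highest Ccrl2 level, 1257, 956, 775 and 798 CPM, and Ccrl2 was 1 of its leading genes although it had no part in the clustering. Cluster 2, led by Sh2d3c and Slc40a1, had the highest Cxcr4, 905, 826, 783 and 928 CPM, with Cxcr2 at 804, 579, 920.5 and 829.5 CPM. Cxcr2 ranged from 1132 to 1379 CPM over the libraries in clusters 14 and 1, cluster 14 being led by G0s2, Ptgs2 and Lrg1 and cluster 1 by Cstdc4, Cxcl3 and Upp1. In cluster 13 it was 796 and 1119.9 CPM in the donor libraries and 1348 and 1402 CPM in the recipient libraries. Ccr1 was at 583 to 965 CPM in clusters 13 and 12 and at 898 to 1471 CPM in the other 5.

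**Figure D3:**
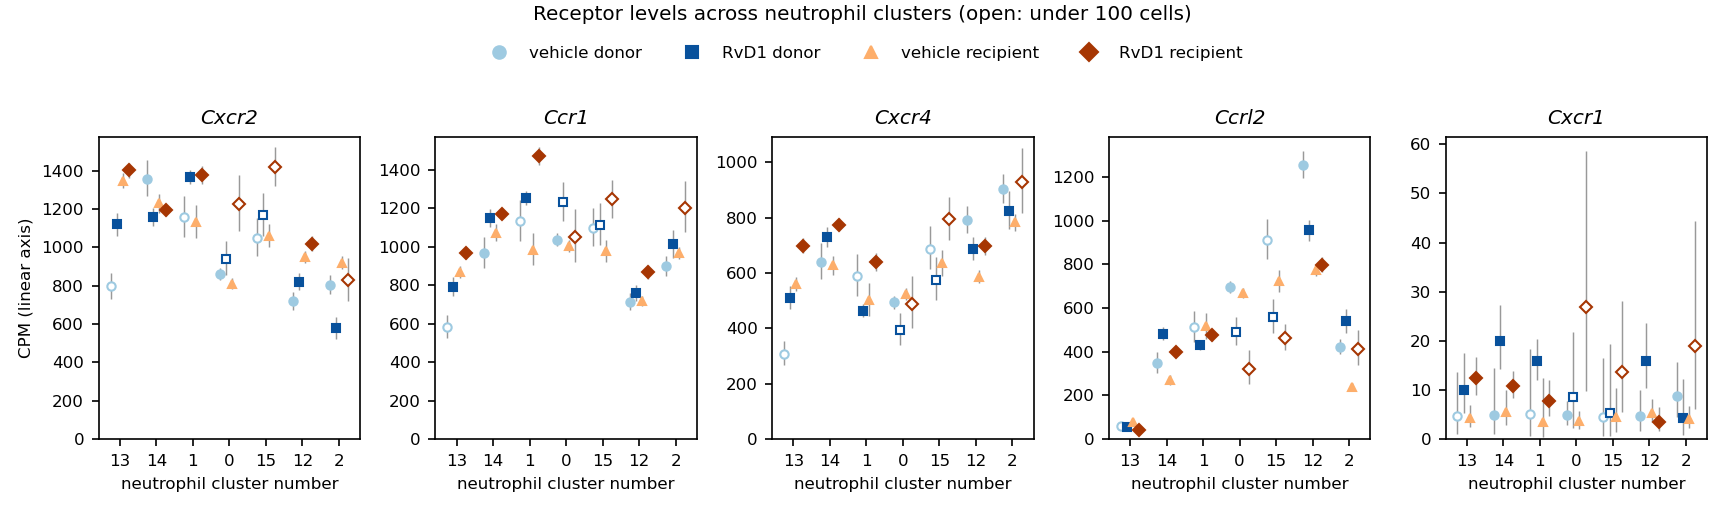
Levels of Cxcr2, Ccr1, Cxcr4, Ccrl2 and Cxcr1 in CPM (linear axes) over the 7 neutrophil clusters, 1 point per library, with bars for the 95% counting interval and open symbols for fewer than 100 cells. Ccrl2 runs from 43.4 to 78.7 CPM in cluster 13 to 775 to 1257 CPM in cluster 12, and the Cxcr1 points of the RvD1 libraries lie mostly above those of the vehicle libraries.

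The libraries drew their neutrophils from different clusters. Clusters 0 and 2 held 58.9, 13.3, 42.7 and 3.79% of neutrophils, and clusters 1 and 14 held 13.95, 58.0, 14.3 and 55.7%. A class level therefore mixes a change of level with a change of make-up, and values within clusters are given beside the class values.

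Receptors were then compared between RvD1 and vehicle, within donor cells and within recipient cells, in the 25 pairs of receptor and class with at least 100 UMIs in each of the 2 contrasts. A pair was counted when CPM differed 1.5-fold or more, the same way, in donor and in recipient cells. By this rule 2 of 25 pairs differed, Cxcr1 in neutrophils and Ccr2 in T cells, both higher with RvD1. Over all genes the same rule called 14.2% of 6506 genes in neutrophils (4.87% higher), 3.7% of 5806 in classical monocytes, 6.91% of 6079 in nonclassical monocytes, 2.41% of 6152 in NK cells, 2.97% of 8599 in T cells (1.05% higher) and 2.26% of 6146 in B cells. The receptors counted were 1 of 6 measured in neutrophils and 1 of 4 in T cells, with 0 of 5 in classical monocytes, 0 of 6 in nonclassical monocytes, 0 of 3 in NK cells and 0 of 1 in B cells. In neutrophils this share is close to the background of either direction, and with so few members no share is read as particular to them.

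**Figure D4:**
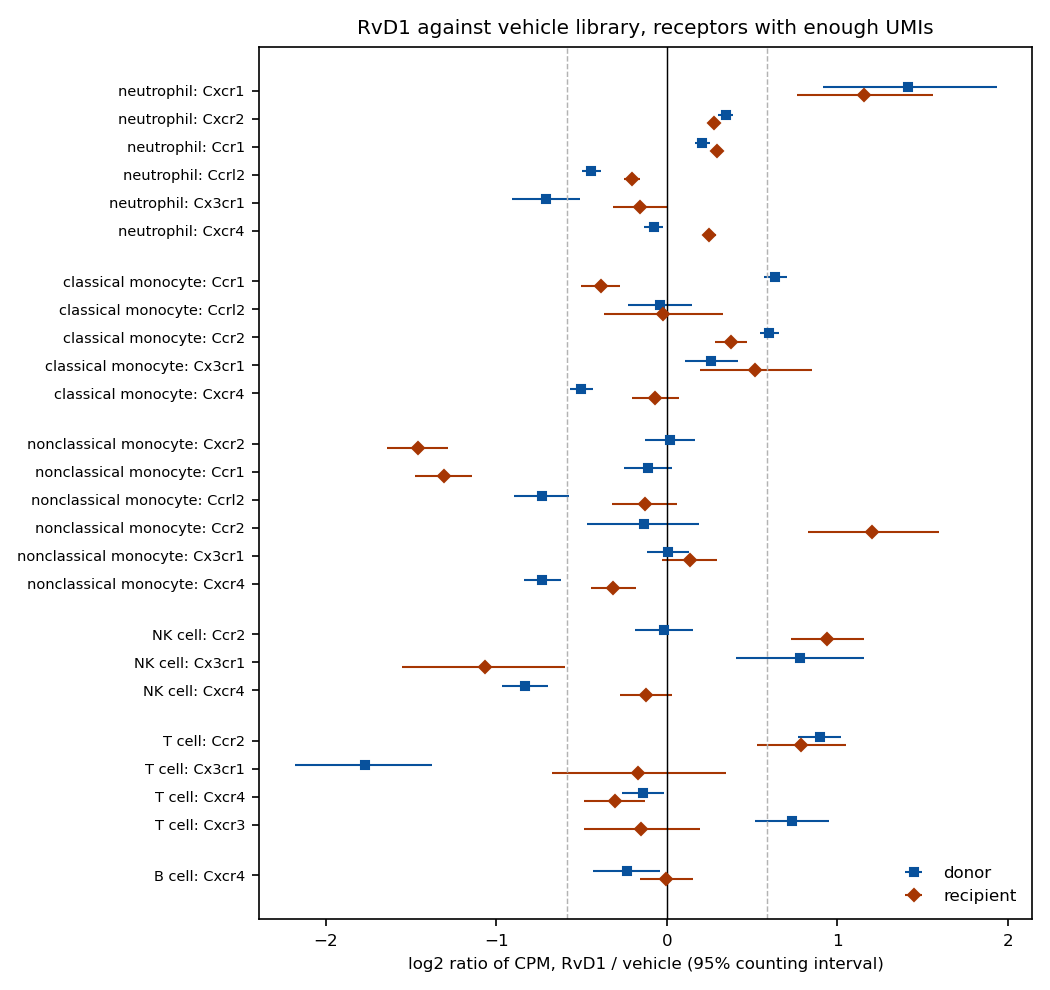
Log2 ratio of CPM, RvD1 over vehicle, for the 25 receptor and class pairs, with squares for donor cells, diamonds for recipient cells, bars for the 95% counting interval and dashed lines at 1.5-fold. Only Cxcr1 in neutrophils and Ccr2 in T cells have both symbols beyond the same dashed line.

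In neutrophils, Cxcr1 went from 5.42 to 14.4 CPM in donor cells, a log2 ratio of 1.41 (interval 0.92 to 1.94), and from 4.42 to 9.86 CPM in recipient cells, 1.16 (0.77 to 1.56). Within single clusters Cxcr1 was higher in the RvD1 library in 6 of 7 clusters in each origin, the exceptions being cluster 2 in donor cells (-1.07) and cluster 12 in recipient cells (-0.66). These cluster values rest on few UMIs. Without clusters 0, 1 and 2 the ratios were 1.72 and 0.99 but fell under the UMI minimum, an alternative chosen after the data were seen.

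Cxcr2 and Ccr1 were also higher in both RvD1 neutrophil libraries, by less than 1.5-fold. The log2 ratios of Cxcr2 were 0.35 (0.30 to 0.39) for donor and 0.28 (0.25 to 0.31) for recipient neutrophils, and those of Ccr1 were 0.21 (0.17 to 0.25) and 0.29 (0.26 to 0.32). Ccr1 was higher with RvD1 in 7 of 7 clusters in both origins, by 0.02 to 0.44 among donor cells and 0.07 to 0.58 among recipient cells. Cxcr2 was higher in 5 of 7 clusters in each origin. Ccrl2 was lower in both RvD1 libraries, with ratios of -0.44 (-0.50 to -0.39) and -0.21 (-0.25 to -0.16), and lower in 5 of 7 clusters in donor and 4 of 7 in recipient cells. The median ratio of the 6 receptors in neutrophils was 0.07 in donor and 0.26 in recipient cells, against 0.03 and 0.11 over all genes measured there.

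In neutrophils Cxcr4 went in opposite directions in the 2 origins, while Cx3cr1 was lower with RvD1 in both, by unlike amounts. Cxcr4 had a ratio of -0.08 (-0.13 to -0.02) in donor cells, while recipient cells had 0.25 (0.21 to 0.29). Cx3cr1 had -0.71 (-0.91 to -0.51) and -0.15. Within neutrophil cluster 0 Cx3cr1 went the other way, from 77.2 to 340.5 CPM in donor and from 71.6 to 610.1 CPM in recipient cells, but the RvD1 libraries had only 90 and 50 cells there. The 9 nonclassical monocyte markers summed to 476, 743, 574 and 893 CPM in cluster 0, higher in the same 2 RvD1 libraries, with 0 Ace and 0 Adgre4 UMIs in these 2 and 124 and 75 UMIs of Treml4. The part of monocyte RNA in this difference was not tested.

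In classical monocytes Ccr2 was higher in both RvD1 libraries. Its log2 ratio was 0.60 (0.55 to 0.66) in donor cells, and in recipient cells 0.38 (0.28 to 0.47), the second under 1.5-fold. Cx3cr1 was also higher in both, 0.26 (0.11 to 0.42) and 0.52 (0.19 to 0.85). Ccr1 went from 275 to 428 CPM in donor cells and from 480.4 to 367 CPM in recipient cells. In nonclassical monocytes the Cx3cr1 ratios were 0.01 (-0.12 to 0.13) and 0.13 (-0.03 to 0.30), with intervals that include 0. Their Ccr2 was 38.5 and 35.1 CPM in vehicle and RvD1 donor cells but 30.3 and 69.9 CPM in recipient cells, a ratio of 1.21 (0.83 to 1.60). Their Cxcr2 and Ccr1 were lower in RvD1 recipient cells, at -1.46 (-1.64 to -1.28) and -1.31 (-1.47 to -1.14). Cluster 4, which carries these 2 receptors, made up 44.1, 30.5, 51.3 and 19.05% of nonclassical monocytes, and inside it Cxcr2 was 466 and 439 CPM in the vehicle and RvD1 recipient libraries.

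Cxcr4 was lower in both RvD1 libraries in 5 of the 6 classes, neutrophils being the exception. Median ratios over all genes were also negative in both contrasts in classical monocytes, NK cells, T cells and B cells. The largest differences were in donor NK cells, from 394 to 222 CPM (-0.83, interval -0.97 to -0.70), and donor nonclassical monocytes, from 466 to 281 CPM (-0.73, -0.84 to -0.62). The recipient values were smaller, -0.12 (-0.28 to 0.03) in NK cells and -0.31 (-0.45 to -0.18) in nonclassical monocytes. In B cells the Cxcr4 ratios were -0.24 in donor and -0.002 in recipient cells, beside medians of -0.29 and -0.10 over all genes. Their direction depended on the scaling, since size factors by the median of ratios turned both contrasts to 0.05 and 0.08. Ccrl2 was lower in both RvD1 libraries in 3 of 3 classes, but its classical monocyte ratios of -0.04 and -0.02 changed sign when mitochondrial and ribosomal protein genes were left out of the total.

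In NK cells Ccr2 was 161 and 159 CPM in vehicle and RvD1 donor cells and 112 and 214 CPM in recipient cells, ratios of -0.02 (-0.19 to 0.15) and 0.94 (0.73 to 1.16). Cx3cr1 went in opposite directions in the 2 origins, 0.78 (0.40 to 1.15) for donor and -1.07 (-1.55 to -0.59) for recipient NK cells.

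Among T cells, Ccr2 had 869, 1192, 161 and 530 UMIs and was detected in 29.5, 38.9, 9.99 and 13.5% of the cells. The log2 ratio of RvD1 to vehicle was 0.90 (0.77 to 1.02) for donor and 0.79 (0.53 to 1.05) for recipient T cells, and Ccr2 was higher in 4 of 5 T cell clusters in each origin. The make-up of the T cells differed between libraries. Clusters 20 and 22, CD8 and CD4 T cells with Lef1 among their leading genes, held 36.0, 19.5, 77.9 and 77.5% of T cells and had little Ccr2, 9.49 to 23.2 and 10.9 to 29.4 CPM. Without them, an alternative chosen after the data were seen, Ccr2 was 140, 216, 60.5 and 115 CPM, with ratios of 0.63 and 0.92. The cells left still differed in make-up. Gamma-delta cluster 16 held 17.4, 27.3, 1.26 and 2.93% of all T cells, and its part in these ratios was not tested. Classical monocyte markers summed to 106, 109, 134 and 126 CPM in T cells, with 5 to 8 of 8 detected, against 3761 to 6276 CPM in classical monocytes. The sum includes Ly6c2, which was detected in 17.6 to 22.3% of T cells, whereas Vcan reached 1.36% and F13a1 0.617% at most. It therefore does not trace monocyte RNA alone, and the part of such RNA in the Ccr2 of T cells was not tested.

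Gamma-delta T cells (cluster 16) carried the most Ccr2 of any T cell cluster, at 298, 437, 484 and 480.1 CPM from 163, 221, 10 and 53 cells. Their level in the donor libraries gave a ratio of 0.55 (0.39 to 0.71), and only the donor libraries had over 100 such cells. Regulatory T cells (cluster 19) had 95.4, 149.5, 49.7 and 90.5 CPM. CD8 T cells of cluster 6, led by genes that include Klrc1 and Ccl5, had 57.5, 75.8, 33.3 and 46.2 CPM, with ratios of 0.46 (0.17 to 0.75) for donor and 0.39 (-0.05 to 0.83) for recipient cells.

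**Figure D5:**
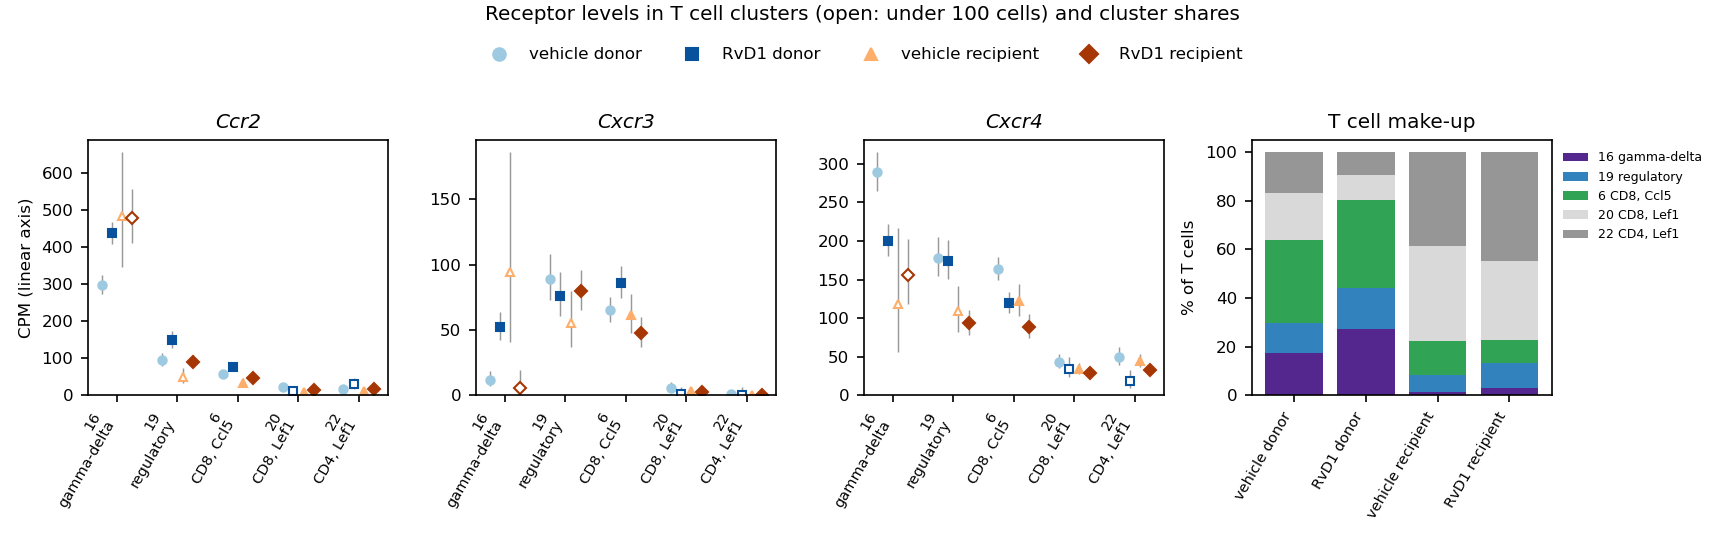
Ccr2, Cxcr3 and Cxcr4 in CPM over 5 T cell clusters, 1 point per library with the 95% counting interval, beside stacked bars of the make-up of T cells in each library. Ccr2 is highest in gamma-delta cluster 16, Cxcr3 is near 0 in clusters 20 and 22, and these 2 clusters make up 77.9 and 77.5% of recipient T cells.

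Cxcr3 in T cells was higher with RvD1 in donor cells, 0.73 (0.52 to 0.95), and had -0.15 (-0.49 to 0.20) in recipient cells; the difference between origins was not tested. It was found in regulatory T cells at 89.2, 76.1, 55.4 and 79.7 CPM and in CD8 cluster 6 at 65.3, 86.2, 61.2 and 47.6 CPM, and was at most 5.68 CPM in clusters 20 and 22. In donor gamma-delta T cells it went from 11.9 to 52.0 CPM, a ratio of 2.13 (1.44 to 2.88) on 21 and 97 UMIs. Cx3cr1 in donor T cells went the other way, from 31.9 to 9.36 CPM (-1.77, -2.18 to -1.37), and was lower with RvD1 in 5 of 5 clusters of donor T cells and in 2 of 4 clusters with a value in recipient T cells. In CD8 cluster 6 it was 84.6, 20.4, 18.0 and 25.5 CPM, so the vehicle donor library alone stood high.

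Recipient cells were compared with donor cells within each treatment, a comparison that lies within 1 Cell Ranger version and uses the same 4 libraries as the one before. The rule of 1.5-fold in both treatments called 3 of 25 pairs, all of them lower in recipient T cells: Ccr2, Cxcr4 and Cxcr3. In T cells 12.2% of 8695 genes were called by this rule and 10.9% were called lower. In the other classes no receptor was called, beside 4.98% of 6851 genes in neutrophils, 1.05% of 7423 in classical monocytes, 0.273% of 6220 in nonclassical monocytes, 0.143% of 6282 in NK cells and 1.06% of 6589 in B cells.

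In T cells, Ccr2 was 4.27-fold lower in recipient than in donor cells with vehicle and 4.61-fold lower with RvD1, log2 ratios of -2.09 (-2.35 to -1.85) and -2.20 (-2.35 to -2.05). Cxcr4 had -1.32 (-1.48 to -1.16) and -1.49 (-1.64 to -1.34), and Cxcr3 -1.13 (-1.45 to -0.82) and -2.01 (-2.27 to -1.76). The median of the 4 receptors measured was -1.71 with vehicle and -1.75 with RvD1, against -0.22 and -0.18 over all genes. Leaving mitochondrial and ribosomal protein genes out of the total moved the vehicle ratio of Cxcr4 to -1.08, and no call was lost. Without clusters 20 and 22 the ratios were nearer 0. Ccr2 stood at -1.21 and -0.92 and Cxcr4 at -0.80 and -0.69, whereas Cxcr3 stood at 0.19 (-0.14 to 0.52) with vehicle and -0.35 with RvD1, which ended its call. Gamma-delta cluster 16 still held a larger share of donor T cells (17.4 and 27.3%) than of recipient T cells (1.26 and 2.93%). Its part in these ratios was not tested. Within clusters Cxcr4 was lower in recipient cells in 5 of 5 with vehicle and 4 of 5 with RvD1, Ccr2 in 4 of 5 and 3 of 5, and Cxcr3 in 4 of 5 and in 2 of 4 with a value.

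No receptor measured in neutrophils differed 1.5-fold or more between origins, the same way, in both treatments. Cxcr1 was lower in recipient than in donor neutrophils with vehicle and with RvD1, on the few UMIs given above. Within clusters it was lower in recipient cells in 5 of 7 with vehicle and in 3 of 7 with RvD1. Cxcr2 was higher in recipient neutrophils by 0.21 with vehicle and by 0.14 with RvD1, and Ccrl2 lower by -0.54 (-0.59 to -0.49) and -0.30 (-0.35 to -0.25). Within clusters Cxcr2, Cxcr4 and Cx3cr1 were each higher in RvD1 recipient than RvD1 donor cells in 7 of 7, but with vehicle Cxcr2 was higher in 4 of 7, Cxcr4 in 2 of 7 and Cx3cr1 in 1 of 7. Ccr2 in classical monocytes was higher in recipient cells by 0.37 and 0.15, and Cx3cr1 in nonclassical monocytes differed by -0.20 and -0.08. Cxcr4 in B cells was lower in recipient cells, -0.52 (-0.68 to -0.36) and -0.29 (-0.48 to -0.09).

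The other chemokine receptors and the genes around them were read from lists of known members of each group. Of 16 other chemokine receptors in the table, 9 reached 100 UMIs in a class. Ccr7, which leads naive lymphocytes to lymph nodes, had 136 to 399.7 CPM in T cells and 277 to 381 CPM in B cells. Cxcr5 had 131 to 171 CPM in B cells and 123 to 173 CPM in neutrophils, and Ccr9 had 982 to 2407 CPM in the small plasmacytoid dendritic cell class. Cxcr6, the receptor for Cxcl16, had the directions of Ccr2 in T cells. It was higher with RvD1 in both origins (199 to 326 and 22.9 to 37.6 CPM, log2 ratios 0.71 and 0.72) and lower in recipient cells (-3.12 with either treatment). Ccr6 (-2.96 and -2.78) and Ccr4 (-2.76 and -2.15) were also lower in recipient T cells, and Ccr7 was higher (0.89 and 1.26). These are values of the whole T cell class, whose make-up differed between libraries. Cxcr6 was a leading gene of gamma-delta cluster 16, which held 17.4, 27.3, 1.26 and 2.93% of T cells. The part of make-up in these ratios was not tested.

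Among 25 genes of chemokine receptor signalling, 22 were measured in neutrophils and 1 was called with RvD1, beside 14.2% of all genes. This was Grk5, a kinase that phosphorylates active receptors. It went from 112 to 279 CPM in donor and from 119 to 248 CPM in recipient neutrophils, ratios of 1.32 (1.21 to 1.43) and 1.05 (0.98 to 1.13). Grk5 was also called higher in classical monocytes (0.65 and 0.85) and lower in T cells (-0.78 and -1.11). In recipient T cells 9 of 23 signalling genes were called against donor cells, 8 lower and 1 higher, beside 12.2% of all genes measured in T cells (10.9% lower). The lower ones included Rgs1 (-1.94 and -2.54) and Rgs2 (-1.16 and -2.07), which shorten G protein signals.

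Of 15 other chemoattractant receptors, 10 were measured in neutrophils and 2 were called with RvD1, both lower, beside 14.2% of all genes (9.38% lower). S1pr1, the receptor for the egress signal sphingosine 1-phosphate, went from 14.04 to 2.61 CPM and from 17.1 to 4.27 CPM (-2.43 and -2.00). Cmklr1, the signalling receptor for chemerin, the ligand that Ccrl2 presents, went from 13.1 to 7.32 CPM and from 7.54 to 2.96 CPM (-0.83 and -1.35). In nonclassical monocytes Ptafr, the receptor for platelet-activating factor, was lower (-0.87 and -1.16). Of the ligands, 20 genes of the list were in the table and 9 were measured in neutrophils, where none was called with RvD1. In NK cells 2 of 6 were, Ccl3 (1.38 and 1.53) and Ccl6 (0.59 and 0.64), both higher, beside 2.41% of all genes (0.975% higher). In recipient neutrophils 4 of 9 ligands were called lower than in donor neutrophils, beside 3.61% of all genes. Among them were Ccl3, a ligand of Ccr1, at 720.0 and 266 CPM with vehicle and 711 and 221 CPM with RvD1, and Cxcl1, a ligand of Cxcr2 (-1.12 and -1.45).

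The genes whose levels followed each receptor most closely were sought over 25 sums of a class and library from 7 classes, among 9513 genes, by Pearson's r of log2(CPM + 10). These sums share libraries and depth and are not independent, so r is a description. Nearest to Cxcr2 were Dhrs9 (0.993), Stfa2l1 (0.993) and Mirt2 (0.991), and nearest to Ccr1 were Slpi (0.990), Mcemp1 (0.989) and Cd14 (0.987). Nearest to Ccrl2 were Id1 (0.986), Atg7 (0.983) and Neat1 (0.982), and to Cxcr1 Art3 (0.910), Bmpr1a (0.895) and Stfa2 (0.893). Cxcr3 was followed by Thy1 (0.979), Icos (0.977) and Adgrg5 (0.967), Cx3cr1 by Nhsl2 (0.952), Dstyk (0.951) and Rap1b (0.947), Ccr2 by Atp2b4 (0.920), Tspo (0.907) and Stard3nl (0.901), and Cxcr4 by Cux1 (0.927), Gng12 (0.925) and Cmip (0.923).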

How the data were processed

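The authors deposited raw counts of UMIs, per gene and barcode, from the 10x Genomics 3' v3 kit, made with Cell Ranger on mm10 (7.0.1 for RvD1 and 6.1.1 for vehicle libraries, per the file headers; Seurat 4.0.0 is named in the submitters' processing notes). The sources used here do not say whether intron reads entered the counts. Totals were 42199775 to 61294707 UMIs per library.

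Cells under 200 genes or above 10% mitochondrial UMIs were removed (69 to 213 per library), and Scrublet doublets (expected rate 0.8% per 1000 cells, 1.49 to 3.35% called) were removed. Clustering of all libraries together used 2000 variable genes per library without chemokine receptor genes, 30 principal components, 15 neighbours and Leiden resolution 1 (scanpy 1.11.5, anndata 0.12.19, leidenalg 0.10.2, igraph 0.11.9, scikit-learn 1.9.0, scikit-image 0.26.0), giving 27 clusters from 23739 cells. Clusters were named from 25 marker sets when at least 3 markers were each detected in at least 10% of cells. They stayed unnamed when a second class reached over 70% of the best score or the score was under 0.8, a bound settled after the clusters were seen.

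For each class in each library UMIs were summed and divided by the class's own total (CPM). Ratios are log2 of CPM with no pseudocount. Their intervals are exact binomial, those of CPM exact Poisson and those of shares Clopper-Pearson, all at 95% and for counting error only, and a library at 0 allows up to 3 counts. A gene was measured with at least 100 UMIs over the pair of libraries in classes of at least 100 cells. Named were all 8 members and, from each of 5 lists, up to 4 called genes per class with the largest mean absolute log2 ratio, besides other chemokine receptors with at least 100 UMIs in a class, of which 1 is not reported here. The members and lists were chosen with earlier results of these data known. The ratio script was tested on simulated counts. Gene positions are GENCODE M21 on GRCm38 (32158 of 32285 genes matched). Python 3.11.15, numpy 2.4.6, scipy 1.17.1, pandas 2.3.3 and matplotlib 3.10.9 were used.

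The part of intron counting in the RvD1 ratios was not tested. As a description, in neutrophils the median log2 ratio of RvD1 to vehicle was 0.23 in donor and 0.22 in recipient cells for genes without introns, and -0.14 and -0.08 for genes with over 100 kb of introns. In T cells genes with over 100 kb had -0.35 and -0.23. All members except Cx3cr1 have 0.436 to 4.848 kb of introns. Genes with introns of up to 5 kb had 0.08 in donor and 0.17 in recipient neutrophils, and 0.17 and 0.08 in T cells.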

Additional observations from a re-analysis of the deposited data

Results flagged for a closer look

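Of 25 pairs measured, the RvD1 ratio had opposite directions in donor and recipient cells, each with an interval away from 0, for 3. The share of all genes that did so was not counted. Neither this count nor the next is therefore read as particular to the receptors. None of the differences between origins or treatments given here was tested, and all use the same 4 libraries. Cxcr4 in neutrophils stood at -0.08 in donor and 0.25 in recipient cells. Ccr1 in classical monocytes stood at 0.64 in donor and -0.39 in recipient cells. Cx3cr1 in NK cells stood at 0.78 in donor and -1.07 in recipient cells.

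The ratio of recipient to donor cells had opposite directions under vehicle and RvD1 for 8 of 25 pairs measured. In classical monocytes Cxcr4 was -0.32 with vehicle and 0.11 with RvD1, and Ccr1 was 0.80 and -0.22. In nonclassical monocytes Cxcr2 was 0.92 and -0.56, Ccr1 was 0.80 and -0.40, and Ccrl2 was -0.39 and 0.21. Cluster 4, which carries Cxcr2 and Ccr1, made up 44.1 and 51.3% of vehicle donor and recipient nonclassical monocytes. With RvD1 it made up 30.5 and 19.05%, and its part in these ratios was not tested. In NK cells Cxcr4 was -0.43 and 0.28, Ccr2 was -0.53 and 0.43, and Cx3cr1 was 0.87 and -0.98.

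Receptors also appeared in clusters that took no name and entered no comparison, above the 3 counts that a value of 0 allows. Cluster 8, led by Klra1, Klra7 and Gzma, had Cx3cr1 at 157 CPM in the RvD1 recipient library (42 UMIs, 56 cells). Cluster 7, led by Xcl1, Ikzf2 and Rgs1, had Ccr2 at 359 CPM in the RvD1 donor library (68 UMIs, 22 cells), beside 143 CPM in the vehicle donor library (53 UMIs, 42 cells).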

How the results depend on the processing

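With RvD1, 2 receptor and class pairs passed the 1.5-fold rule, and between origins 3 did. The RvD1 count was 1 with a minimum of 200 UMIs, which Cxcr1 in neutrophils missed, 5 with doublets kept and 1 for neutrophils without clusters 0, 1 and 2. The origin count was 5 with a minimum of 50 UMIs, 8 with doublets kept, 5 with each library clustered alone, where classical monocytes gave no value, 4 at most 5% mitochondrial UMIs, 4 with receptor genes in the clustering and 2 without T cell clusters 20 and 22. The pairs added with doublets kept were Cxcr2 or Ccr1 in T cells or B cells and Cxcr2 in classical monocytes. Leaving out those T cell clusters, Cxcr3 in vehicle recipient against donor T cells reversed to 0.19. Signs held for 93 of 100 ratios with size factors by the median of ratios, 96 without mitochondrial and ribosomal protein genes, 97 at most 5% mitochondrial UMIs, 94 with doublets kept, 97 at resolution 2, 98 with receptor genes in the clustering and 97 with the mean over cells, and for 77 of 80 with each library clustered alone. There Ccr2 in RvD1 nonclassical monocytes, recipient against donor, was -0.31 in place of 1.00. The cause of these changes was not tested. Levels were computed again only with doublets kept, at resolution 2 and with receptor genes in the clustering. The count of 15 pairs at or above 100 CPM was the same under each of these. Single levels moved outside their counting interval in 79 cases with doublets kept (113 stayed inside), 20 at resolution 2 (172 inside) and 16 with receptor genes (176 inside). The class highest for each receptor was the same by CPM and by cells thinned to 1000 UMIs, but by the share of cells before thinning nonclassical monocytes stood highest for Cxcr4. No paired analysis was possible because each group holds 1 library, and for the same reason none could be left out. At this depth a Cxcr1 difference within 1 neutrophil cluster is often not detectable.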

Other observations

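Cells outside the named classes carried receptors too. Cluster 17, led by Ccl17, Ccl22 and Fscn1, genes of activated dendritic cells, had Ccr2 at 80.8, 101, 156 and 281 CPM in vehicle and RvD1 donor cells and then vehicle and RvD1 recipient cells. Only the donor libraries had at least 100 cells in cluster 17, so its recipient values are less certain. Cluster 11, led by genes of the cell cycle, had Cxcr3 at 29.6 to 53.3 CPM. Cluster 25, led by Scgb1a1 and Cldn5, genes of airway epithelium and endothelium, had Cx3cr1 at 42.5 to 68.8 CPM.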
